A study of Mus musculus with 7 samples.

Results

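Hlf, Mecom, Mllt3, Meis1, Gfi1, Gfi1b, Etv6, Myb and Prdm16 encode transcription regulators that sustain or limit the self-renewal of blood stem cells. They were taken as a named set of 9 genes outside the Hox genes and the heptad of core blood factors, and every probe set annotated to one of them alone was read. A probe set named 8 of the 9 genes, out of 12393 genes on the array, and these 8 genes had 12 probe sets out of 20380 that name a single gene. No probe set read here named Prdm16, so its level was not analysed here. None of the 12 was shared with another gene.

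The RNA came from mouse fetal liver at embryonic day 14.5, from cells that lacked lineage antigens and carried Sca-1, c-Kit and CD150. The TFIIA nc/nc embryos carried noncleavable TFIIAα-β on both alleles, and their 3 samples held 2, 2 and 4 embryos. The 4 wild-type samples held 1, 1, 4 and 3 embryos, and all embryos came from crosses of heterozygous parents. Pools were of littermates, each sample had its own array, and the mouse strain is not given in the sources used here. The change acts in every cell of the embryo, so it was present in the liver around the stem cells as well as in them. No litter shared between samples is named, so p-values measure the spread between these 7 samples.

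TFIIA is a general transcription factor that holds TBP on promoters, and its large subunit is normally cut by the protease Taspase1. The regulators described here act one level above, as sequence-specific factors or their cofactors. Hlf is a bZIP factor that marks and protects resting stem cells. Mllt3 reads acetylated histones and brings the elongation machinery to stem cell genes, Meis1 is a homeodomain partner of Hox and Pbx proteins, and Mecom and Prdm16 are zinc-finger proteins with PR domains. Gfi1 and Gfi1b are related zinc-finger repressors that recruit the demethylase LSD1, Etv6 is an ETS-family repressor needed for blood formation in bone marrow, and Myb is an activator needed for definitive blood formation.

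The bases before the start site are shown for Hlf, Mllt3 and Gfi1, whose differences between genotypes lay lowest, and for Meis1, whose readings did not follow them. They are RefSeq sequences of mouse build GRCm38.p6, 120 bases each, all on the minus strand and written 5′ to 3′ up to the base before the start. Capitals mark the GC box GGGCGG on either strand, a site that binds SP-family factors. Hlf lies at chr11:90390918-90391037, Mllt3 at chr4:88033408-88033527, Gfi1 at chr5:107725806-107725925 and Meis1 at chr11:19018970-19019089.
Hlf: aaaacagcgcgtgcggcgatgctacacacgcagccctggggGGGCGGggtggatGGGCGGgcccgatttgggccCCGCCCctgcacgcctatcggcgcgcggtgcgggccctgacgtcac
Mllt3: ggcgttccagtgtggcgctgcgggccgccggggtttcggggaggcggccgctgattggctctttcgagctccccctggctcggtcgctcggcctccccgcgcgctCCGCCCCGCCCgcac
Gfi1: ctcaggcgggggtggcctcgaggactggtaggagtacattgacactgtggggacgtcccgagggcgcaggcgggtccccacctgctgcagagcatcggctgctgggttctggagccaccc
Meis1: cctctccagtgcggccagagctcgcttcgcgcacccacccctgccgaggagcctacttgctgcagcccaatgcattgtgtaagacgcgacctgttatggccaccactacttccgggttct

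RefSeq held 12 promoters for the 9 genes, among 32851 in all, and 250 bases before each start were searched on both strands. The TATA box letters TATAAA, the classical place where TBP and TFIIA sit, were in 0 of the 12 windows and in 12.4% of all windows. The GC box was in 7 of the 12 and in 32.7% of all. Hlf held it at 3 places and the upstream Mllt3 start at 2, where overlapping copies can share bases, and the Gfi1 and Meis1 windows held none. The Myb window was 81.2% G or C, the upstream Mllt3 window 69.2% and that of Hlf 67.2%, against a median of 52.4%. The windows of Gfi1b (44.4%), the other Mllt3 start (45.2%) and the Mecom starts (50.8% and 50.4%) lay below that median. Of letters bound by the regulators themselves, the GFI1 core AAATC was in 6 of the 12 windows against 32.7% of all. It occurred at 2 places before the starts of Gfi1b and Hlf, at 2 and 3 before the Mecom starts, once each before Etv6 and Myb, and at 0 before the starts of Gfi1, Mllt3, Meis1 and Prdm16. The MYB letters AACNG were in 10 of the 12 against 74.2%, and the MEIS letters TGACAG in 2 against 15.9%. The letters TTACGT of the HLF type were in 1 against 2.4%, and the ETS letters CCGGAAG in 1 against 6.9%. A match of letters is not evidence that a factor binds.

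All levels are log2 values of the deposited RMA intensities, where 1 unit is a doubling, and differences are TFIIA nc/nc minus wild type with standard errors (SE). The array medians were 3.70 to 3.83, and levels are compared between arrays for each probe set, not between probe sets. Before the members are described, 3 arrays have to be set apart by transcripts typical of other liver cells. The mean of 14 genes of liver sinusoidal endothelium reached 6.49 and 7.04 in the first and second TFIIA nc/nc arrays. It reached 6.66 in wild-type replicate 1 and spanned 3.83 to 4.18 over the remaining 4 arrays. Of those genes, Lyve1, Stab2 and Oit3 read at most 3.65 in those 4, while Tie1 and Emcn by themselves did not separate the arrays. The mean of 9 liver parenchyma genes followed, at 4.10 to 5.02 in the 3 arrays and 3.06 to 3.28 elsewhere. Of these, Ttr, Ahsg and Serpina1b did not separate the arrays. Krt18 went the other way, at 5.49 to 5.81 in the 3 arrays and 5.98 to 6.57 elsewhere. The mean of 6 surface genes of blood cells (Kit, Slamf1, Procr, Cd34, Cd48 and Ptprc), not all sort markers, also went the other way. It was 7.58 to 7.86 in the 3 arrays and 8.06 to 8.31 elsewhere, though Slamf1, Cd34 and Cd48 by themselves did not separate the arrays. Over the 7 arrays the remaining lists spanned 2.93 to 5.31 for macrophages, 3.73 to 4.66 for erythroid cells, 4.18 to 4.96 for megakaryocytes and 3.18 to 3.65 for lymphoid precursors. The mean of 5 genes of the lineage gate spanned 4.06 to 4.32. It includes Ptprc, which is also among the 6 surface genes, at 8.98 to 9.80. Cd3e, Cd3d, Cd4 and Cd8a read at most 3.72. The array pairs correlated at 0.966 to 0.991 over all probe sets. In bulk RNA, fewer cells of a type and less RNA per cell cannot be told apart.

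Hlf, Mllt3 and Gfi1 gave lower mean readings in TFIIA nc/nc than in wild type, by 1.41 to 1.71 fold, and Myb by 1.23 to 1.41 fold, while the means of Meis1 and Etv6 were close to or above those of wild type. None of the 12 probe sets passed the threshold (limma over 22626 probe sets, Benjamini-Hochberg adjusted p of 0.984 to 0.993). In that fit 0 probe sets were called higher and 1 was called lower, 0.00442% of those tested. At an unadjusted limma p under 0.05, 4 of the 12 lay lower, both for Hlf and 1 each for Mllt3 and Gfi1, and 0 lay higher. Over all probe sets 2.09% lay lower and 1.91% higher at that level. In 0 of the 12 did the TFIIA nc/nc values lie wholly below or above the wild-type values, against 2.81% below and 2.85% above over all probe sets. The median difference over the 12 was −0.39, with 10 below 0, beside a median of −0.01 and 51.9% below 0 over all probe sets. Several of the 12 share a gene. With 1 probe set a gene the median was −0.32, with 6 of 8 below 0, beside −0.01 and 51.9% over all genes. As a measure of RNA integrity, the actin control read at its 3′ end minus that at its 5′ end was 2.95, 2.15 and 2.99 in TFIIA nc/nc and 2.92, 2.62, 1.94 and 2.12 in wild type. With it as a covariate the median over the 12 was −0.26, the differences were −0.54 and −0.61 for Hlf, −0.70 for Mllt3 and −0.68 for Gfi1, and 3 of the 12 had an unadjusted limma p under 0.05, without Gfi1. Of all probe sets 2.09% lay lower in that fit. These 12 had been chosen with earlier results of the same arrays known, so the counts are descriptive.

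**Figure D1:**
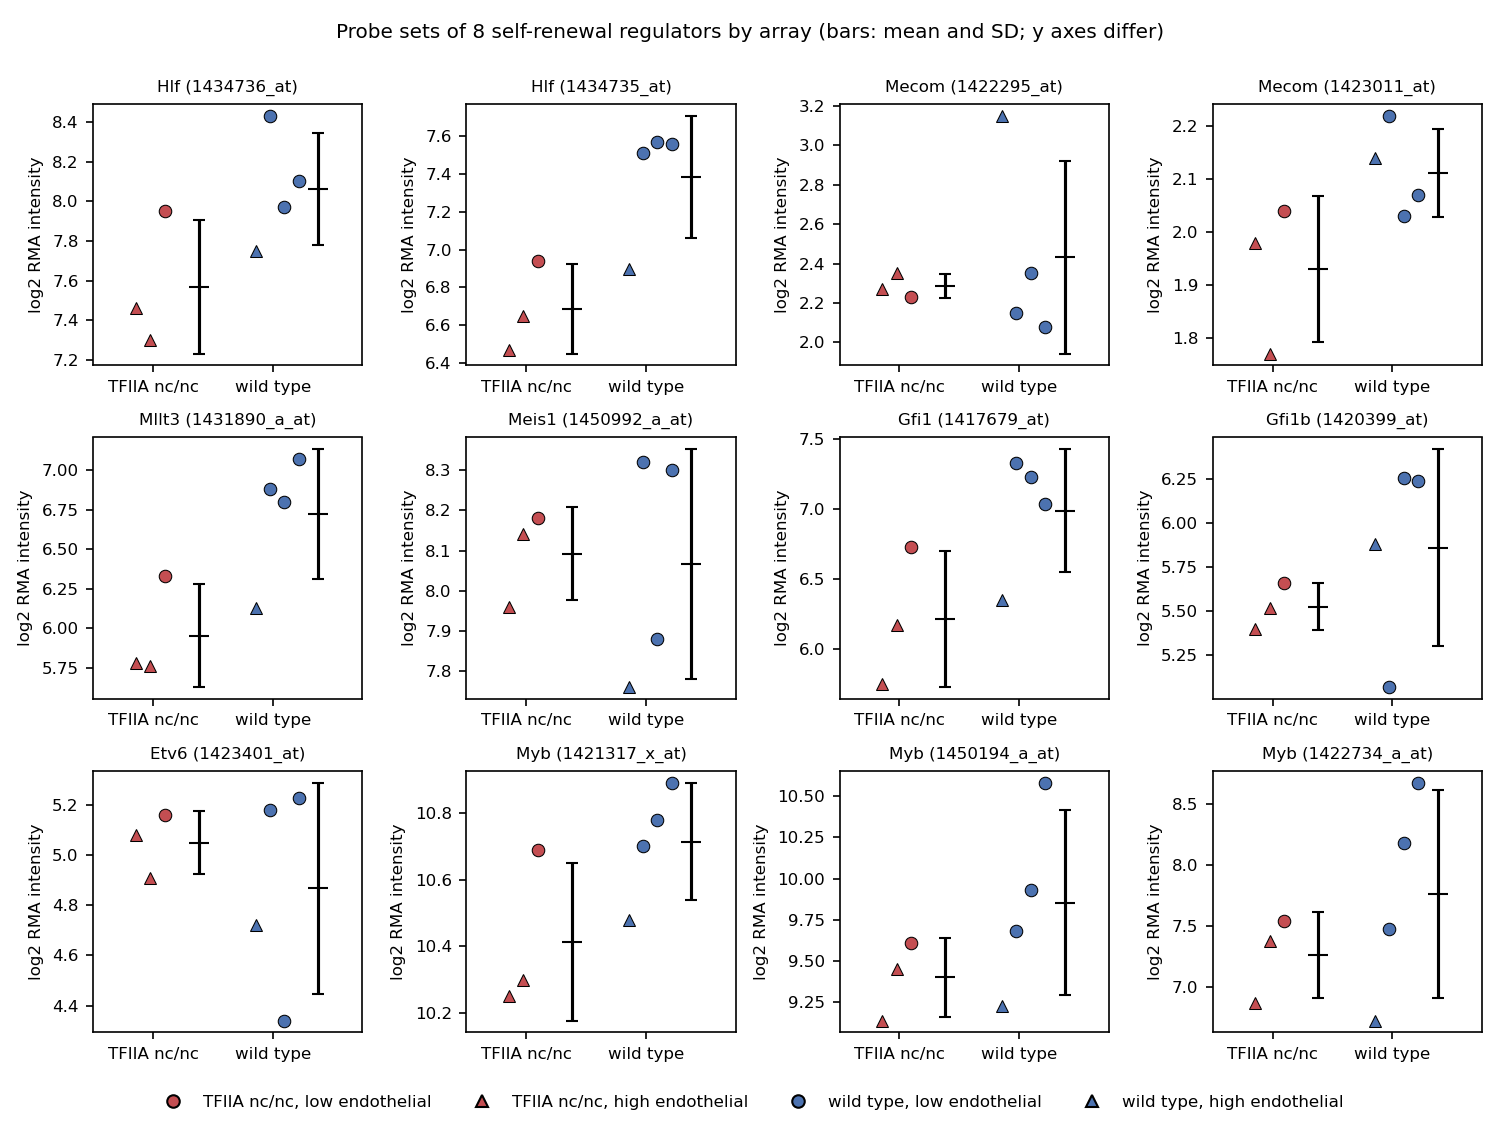
Log2 RMA intensity (y axis, scaled for each panel) of the 12 probe sets in the 3 TFIIA nc/nc and 4 wild-type arrays. Each point is 1 array, triangles mark the 3 arrays with high endothelial transcripts, and bars give mean and SD. In the panels of Hlf, Mllt3 and Gfi1 wild-type replicate 1 lies with or near the TFIIA nc/nc arrays and below the other 3 wild-type arrays.

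Hlf was read by 2 probe sets. The probe set 1434735_at read 6.47, 6.65 and 6.94 in the TFIIA nc/nc arrays and 6.90, 7.51, 7.57 and 7.56 in wild type. The last 3 wild-type arrays lay close together, with an SD of 0.03, and above every TFIIA nc/nc array, while wild-type replicate 1 lay just under TFIIA nc/nc replicate 3. The means were 6.69 ± 0.24 (SD, n = 3) and 7.38 ± 0.32 (SD, n = 4), a difference of −0.70 (SE 0.21, 95% interval −1.16 to −0.23, limma adjusted p = 0.984; exact permutation p = 0.0857). The brighter probe set 1434736_at read 7.46, 7.30 and 7.95 against 7.75, 8.43, 7.97 and 8.10. Its groups overlapped through the same pair of arrays, and its difference was smaller at −0.49 (SE 0.21; exact permutation p = 0.114).

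Mllt3, also called AF9, is a member of complexes of the elongation machinery. Its single probe set read 5.78, 5.76 and 6.33 in TFIIA nc/nc and 6.13, 6.88, 6.80 and 7.07 in wild type. Again the 3 wild-type arrays with low endothelial transcripts were the highest, and wild-type replicate 1 lay between TFIIA nc/nc replicates 1 and 3. The means were 5.95 ± 0.32 (SD, n = 3) and 6.72 ± 0.41 (SD, n = 4), a difference of −0.77 (SE 0.25, 95% interval −1.32 to −0.21; limma adjusted p = 0.984). The exact permutation p was 0.0857, where the smallest that 3 against 4 arrays allow is 0.0286.

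Gfi1 restrains the cycling of stem cells and also drives granulocyte maturation. It read 5.75, 6.17 and 6.73 in TFIIA nc/nc and 6.35, 7.33, 7.23 and 7.04 in wild type, so wild-type replicate 1 lay inside the TFIIA nc/nc range. The means were 6.21 ± 0.49 (SD, n = 3) and 6.99 ± 0.44 (SD, n = 4), 1.71-fold lower (difference −0.77, SE 0.29, 95% interval −1.42 to −0.13; limma adjusted p = 0.984, exact permutation p = 0.0857). The mean of 8 granulocyte genes was 3.92 to 3.98 in TFIIA nc/nc and 4.04 to 4.28 in wild type (exact permutation p = 0.0857). Of these genes, 6 had a median level under 4. Only Prtn3 separated the genotypes by itself. Mpo overlapped, and Ms4a3 read 2.73, 3.24 and 3.61 in TFIIA nc/nc against 3.06, 2.83, 2.80 and 2.98. The part of the granulocyte genes in the Gfi1 readings was not tested. Gfi1b, the erythroid and megakaryocytic relative, read 5.40, 5.52 and 5.66 in TFIIA nc/nc and 5.88, 5.07, 6.26 and 6.24 in wild type. Its TFIIA nc/nc values lay inside the wild-type range, because wild-type replicate 2 was the lowest array of all. The Gfi1b difference was −0.33 (SE 0.28, 95% interval −0.96 to 0.29; limma adjusted p = 0.984). Without wild-type replicate 2 it was −0.60 (SE 0.18; limma adjusted p = 0.952), and without wild-type replicate 3 or 4 it was −0.20 and −0.21.

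Myb was read by 3 probe sets that share 1 gene and are not replicates. The probe set 1421317_x_at read 10.25, 10.30 and 10.69 in TFIIA nc/nc and 10.48, 10.70, 10.78 and 10.89 in wild type. The suffix x marks probes that can match other sequences too. The probe set 1450194_a_at read 9.14, 9.45 and 9.61 against 9.23, 9.68, 9.93 and 10.58, and 1422734_a_at read 6.87, 7.38 and 7.54 against 6.73, 7.48, 8.18 and 8.67. In each of them the 3 wild-type arrays of low endothelial level included the highest value, and wild-type replicate 1 lay within or under the TFIIA nc/nc range. The differences were −0.30 (SE 0.17), −0.45 (SE 0.29) and −0.50 (SE 0.41), with exact permutation p of 0.143, 0.229 and 0.486. Single arrays moved the last of these most: 1422734_a_at differed by −0.84 without wild-type replicate 1, −0.30 without TFIIA nc/nc replicate 1 and −0.19 without wild-type replicate 4. Without wild-type replicate 4 the difference of 1450194_a_at was −0.21. With the actin measure as a covariate these probe sets differed by −0.18 and −0.28.

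Meis1, which cooperates with Hoxa9 in stem cells, had no such pattern. It read 7.96, 8.14 and 8.18 in TFIIA nc/nc and 7.76, 8.32, 7.88 and 8.30 in wild type, with all 3 TFIIA nc/nc values inside the wild-type range. The difference was 0.03 (SE 0.18), and its 95% interval of −0.38 to 0.44 holds changes of both signs. Etv6 read 5.08, 4.91 and 5.16 against 4.72, 5.18, 4.34 and 5.23. Its difference was 0.18 (SE 0.23, 95% interval −0.33 to 0.69; limma adjusted p = 0.984), and it was more spread in wild type (SD 0.42) than in TFIIA nc/nc (SD 0.13). The Etv6 difference was 0.01 without wild-type replicate 3, 0.29 without wild-type replicate 2 and 0.30 without wild-type replicate 4.

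Mecom, a regulator that long-term stem cells depend on, was read by 2 dim probe sets. One, 1422295_at, read 2.27, 2.35 and 2.23 in TFIIA nc/nc and 3.15, 2.15, 2.35 and 2.08 in wild type. Only wild-type replicate 1 stood out, and the difference was −0.15 (SE 0.25). The other, 1423011_at, read 1.98, 1.77 and 2.04 against 2.14, 2.22, 2.03 and 2.07, a difference of −0.18 (SE 0.14). The lower quartile of an array was 2.24 to 2.47, and most Mecom readings lay in or below that range. RMA returns a value for probe sets with no transcript, so these readings do not show whether Mecom was expressed.

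The groups overlapped for Hlf, Mllt3 and Gfi1 only through the pair of wild-type replicate 1 and TFIIA nc/nc replicate 3. Leaving out either array of that pair removes the overlap by construction, so its absence then is not a separate result. Wild-type replicate 1, an array of a single embryo with high endothelial transcripts, lay below the other 3 wild-type arrays in 8 of the 12 member probe sets. That was 66.7%, against 26.5% of all probe sets. With 1 probe set a gene it was 5 of 8, against 26.6% of all genes. Among probe sets with a mean level of at least 5 the share was 8 of 9, against 37.9%. Without wild-type replicate 1 the differences were −0.86 and −0.60 for Hlf, −0.96 for Mllt3 and −0.99 for Gfi1. In that fit 6 of the 12 lay lower at an unadjusted limma p under 0.05, against 3.77% of all probe sets. None of the 12 passed then either, with a smallest adjusted p of 0.441. The number at that unadjusted p was 2 without TFIIA nc/nc replicate 1 or 2, beside 1.22% and 1.23% of all probe sets, and 5 without TFIIA nc/nc replicate 3, beside 1.87%. It was 3 without wild-type replicate 2, beside 2.06%, and 2 without wild-type replicate 3 or 4, beside 1.92% and 2.86%. The median over the 12 was −0.23 without wild-type replicate 4.

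**Figure D2:**
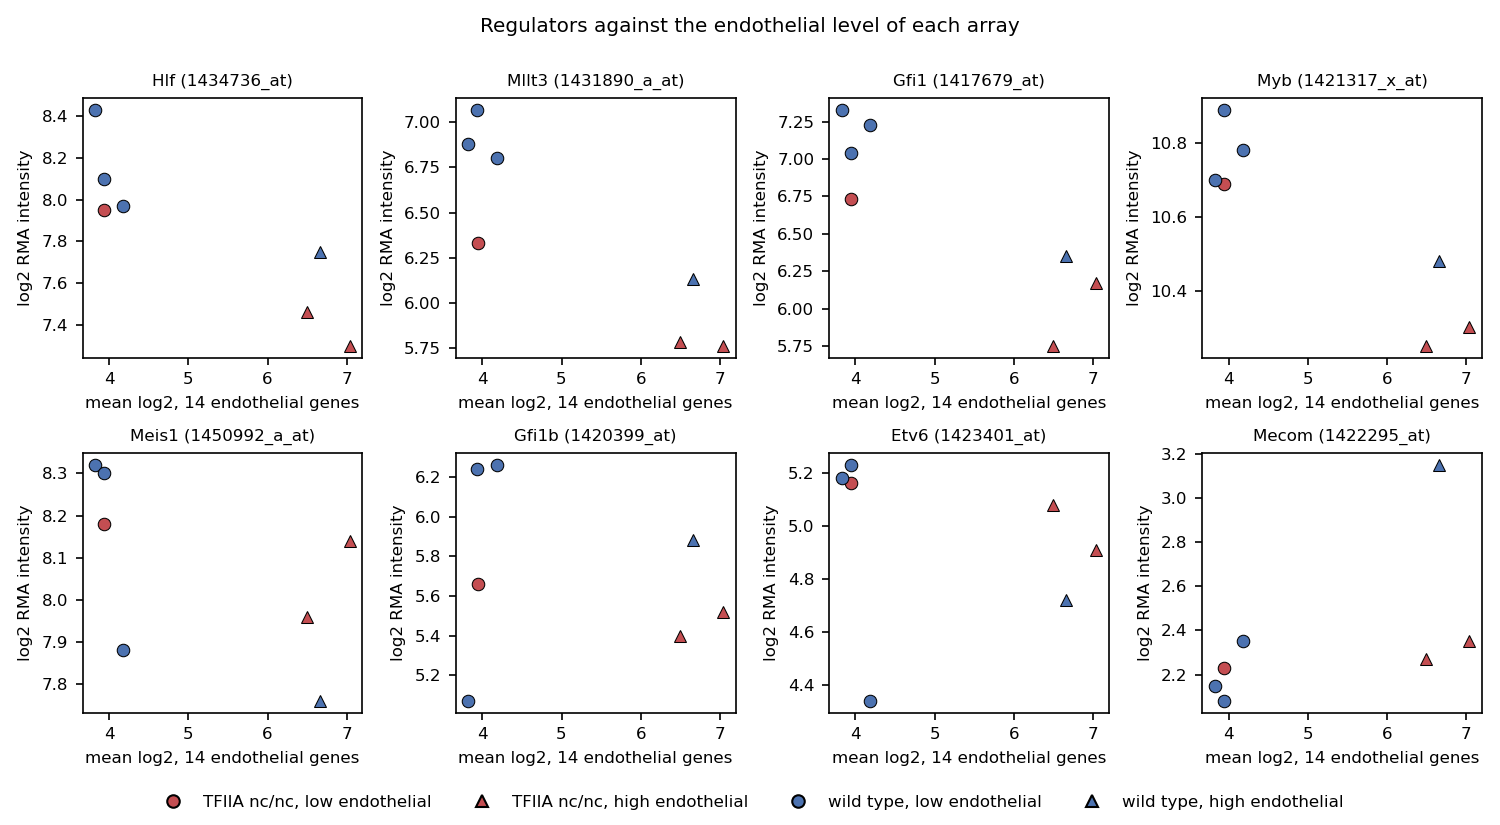
Log2 RMA intensity of the brightest probe set of 8 regulators (y axis) against the mean log2 level of 14 endothelial genes (x axis), 1 point per array. The arrays form a cluster of 4 at an endothelial level of 3.83 to 4.18 and one of 3 at 6.49 to 7.04. Hlf, Mllt3, Gfi1 and Myb are lower in the second, with TFIIA nc/nc below wild type inside each cluster. How many of all probe sets are ordered this way was not counted. In the first cluster TFIIA nc/nc nearly ties with the lowest wild-type array for Hlf (7.95 and 7.97) and Myb (10.69 and 10.70).

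The endothelial level moved with Hlf, Mllt3, Gfi1 and Myb, so their differences were also read among arrays of like endothelial level. Among the 4 arrays of low level, with 1 TFIIA nc/nc and 3 wild-type arrays, Hlf differed by −0.61 (1434735_at) and −0.22 (1434736_at), Mllt3 by −0.59 and Gfi1 by −0.47. The single TFIIA nc/nc array lay below all 3 wild-type arrays in each of these probe sets, though in 1434736_at it nearly tied with the lowest of them (7.95 against 7.97). That array also had the highest mean of 12 macrophage genes, 5.31, against 4.47, 2.93 and 3.61 in those wild-type arrays. The embryonic globin Hbb-y read 7.93 in it and at most 3.60 in them. The erythroid list as a whole did not follow Hbb-y. Tfrc and Hemgn also lay above those 3 wild-type arrays, Hba-a1, Alas2 and Rhag lay below them, and Klf1, Epor, Slc4a1 and Ermap lay between. The part of these transcripts in the differences was not tested. Among the 3 arrays of high level, with 2 TFIIA nc/nc and 1 wild-type array, the differences were −0.34 and −0.37 for Hlf, −0.36 for Mllt3 and −0.39 for Gfi1. Both TFIIA nc/nc arrays lay below the wild-type array there. How many of all probe sets are ordered this way in either cluster was not counted. These probe sets were picked for their low readings over the same 7 arrays, so the order inside the clusters is descriptive. Inside each cluster the distance between genotypes was thus smaller than over all 7 arrays, and had the same sign.

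With the cluster as a block, a setting added after the data were seen, the differences were −0.48 (SE 0.16) and −0.29 (SE 0.18) for Hlf, −0.48 (SE 0.17) for Mllt3 and −0.44 (SE 0.18) for Gfi1. In that limma fit 3 of the 12 lay lower at an unadjusted p under 0.05, against 2.28% of all probe sets, and the smallest adjusted p was 0.954. Ptprc, the CD45 antigen that blood cells carry and endothelium lacks, read 9.08, 9.13 and 9.51 in TFIIA nc/nc and 8.98, 9.61, 9.41 and 9.80 in wild type. With its level as a covariate, also added later, Hlf differed by −0.52 and −0.33, Mllt3 by −0.51 and Gfi1 by −0.51. For Myb the 2 clusters did not give the same picture. In 1421317_x_at the difference was −0.11 among arrays of low and −0.20 among arrays of high endothelial level. In 1450194_a_at it was −0.45 and 0.07, and in 1422734_a_at −0.56 and 0.40. Meis1 differed by 0.01 and 0.29 and Etv6 by 0.24 and 0.28. Mecom probe set 1422295_at differed by 0.04 and −0.83. A cluster with 1 array of a genotype gives no spread for that genotype.

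**Figure D3:**
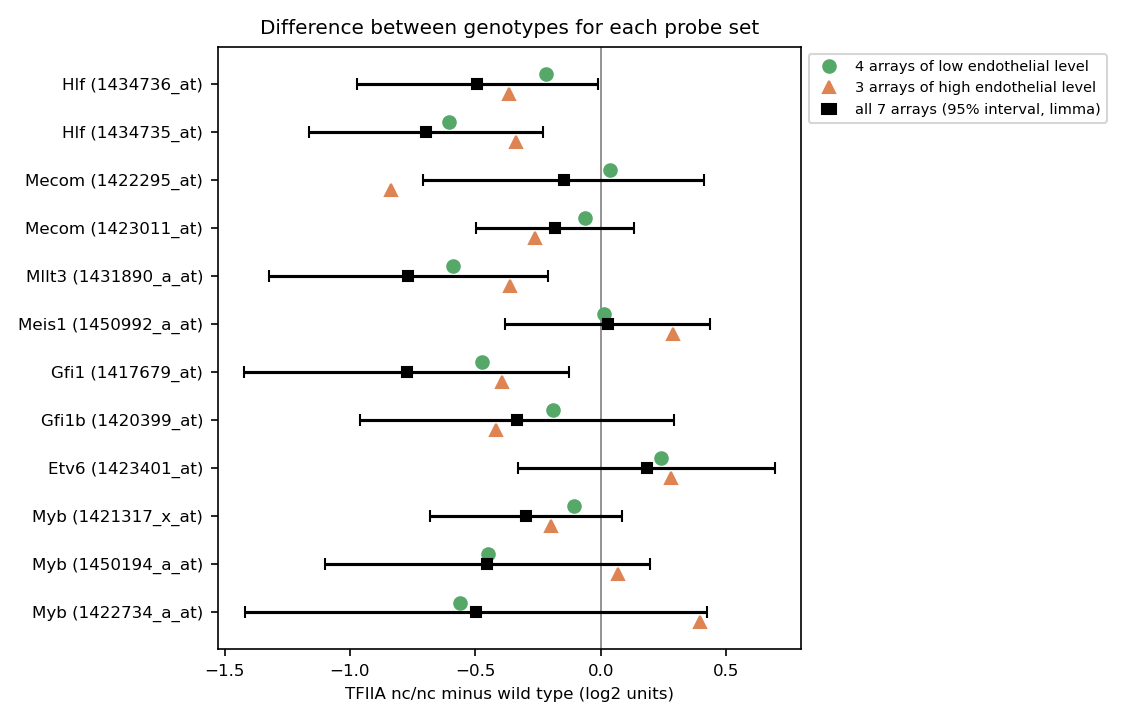
TFIIA nc/nc minus wild type in log2 units (x axis) for the 12 probe sets, over all 7 arrays with the 95% interval of limma (squares), among 4 arrays of low endothelial level (circles) and among 3 of high level (triangles). The intervals of both Hlf probe sets, Mllt3 and Gfi1 lie below 0, before adjustment over all probe sets, and both partial differences of these 4 lie below 0.

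Related genes of the same protein families were read for comparison, with the brightest probe set of each. Of 14 measured, 0 passed in either direction, 0 had an unadjusted limma p under 0.05, and the median difference was −0.10, beside −0.01 over all 12393 genes. In 1 of the 14 the TFIIA nc/nc values lay wholly below the wild-type values and in 0 wholly above. Of all 12393 genes, 381 lay wholly below and 400 wholly above. Etv3, an ETS-family repressor like Etv6, read 5.31, 5.64 and 5.62 in TFIIA nc/nc and 5.79, 5.62, 6.21 and 6.19 in wild type, a difference of −0.43 (SE 0.19). Tef, a PAR bZIP relative of Hlf, read 5.64, 5.78 and 5.81 against 6.01, 6.11, 5.83 and 6.11. Every TFIIA nc/nc array lay below every wild-type array for Tef (difference −0.27, SE 0.14, limma adjusted p = 0.984, exact permutation p = 0.0571). Nfil3, a bZIP repressor that opposes that family, differed by 0.30 (SE 0.20) at a dim level. Dbp, the third PAR bZIP gene, differed by 0.00 (SE 0.18), and Mllt1, the paralogue of Mllt3, by 0.05 (SE 0.43).

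Of 22 measured partners and cofactors, such as LSD1, CoREST, menin and histone deacetylases, 0 passed and 0 had an unadjusted limma p under 0.05. Their median difference was −0.02, with 12 lower and 10 higher. The smallest p belonged to Rcor3, a CoREST protein, at −0.41 (SE 0.22) and a dim level, Ctbp1, a corepressor bound by Mecom, at −0.22 (SE 0.14), and Sin3a, a corepressor scaffold, at −0.39 (SE 0.25). Ctbp1 read 9.11, 9.13 and 9.12 in TFIIA nc/nc and 9.27, 9.17, 9.43 and 9.51 in wild type, so its groups did not overlap. It was the only gene of the 22 without overlap (exact permutation p = 0.0571). Of all 12393 genes, 381 lay wholly below and 400 wholly above. Kdm1a, the LSD1 demethylase that Gfi1 and Gfi1b recruit, differed by 0.19 (SE 0.15).

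Of 21 measured genes reported as targets of 1 or more of the regulators, 0 passed, with 1 higher and 2 lower at an unadjusted limma p under 0.05. Over all genes 2.02% lay higher and 2.41% lower at that level. The median difference was 0.04. Ccnd1, the G1 cyclin D1, read 7.63, 7.78 and 7.32 in TFIIA nc/nc and 6.59, 6.67, 6.59 and 6.68 in wild type. All 3 TFIIA nc/nc arrays were above all 4 wild-type arrays, by a mean of 0.94 (SE 0.15; limma adjusted p = 0.447). Flt3, a cytokine receptor that Meis1 and Myb are known to act on, read 5.40, 5.72 and 5.75 against 5.99, 6.08, 6.60 and 6.90, a difference of −0.77 (SE 0.24) without overlap. Of the 21 targets 1 lay wholly below and 1 wholly above, beside 381 and 400 of all 12393 genes. Spi1, which encodes PU.1, read 4.11, 4.32 and 4.74 against 4.48, 4.77, 5.82 and 5.75, a difference of −0.82 (SE 0.34) with overlap. Hoxa9 differed by −0.28 (SE 0.18), Kit by −0.49 (SE 0.32) and Gata2 by 0.00 (SE 0.15).

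**Figure D4:**
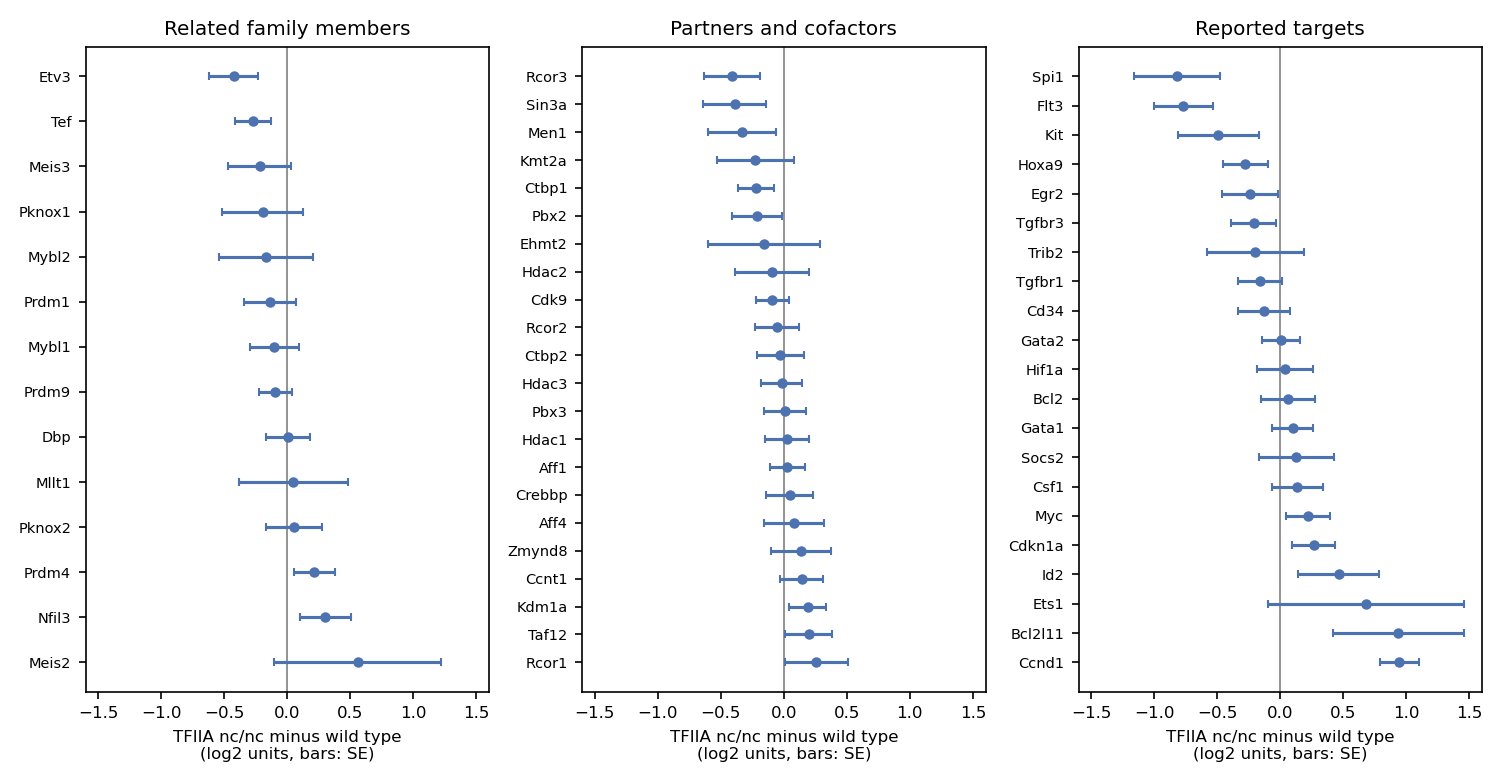
TFIIA nc/nc minus wild type in log2 units (x axis) with SE for 14 related family members, 22 partners and cofactors and 21 reported targets, the brightest probe set of each gene. Ccnd1 at 0.94 is the highest point and Spi1 at −0.82 the lowest.

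The genes whose profile over the 7 arrays lay nearest to a member were found from the root mean square difference of values centred on each gene's mean, for members that spanned at least 1 log2 unit. Serpinb6b lay nearest to Hlf (0.05 log2 units, against an SD of 0.38 for Hlf over the arrays), with readings of 5.98, 5.82 and 6.47 in TFIIA nc/nc and 6.28, 6.83, 6.39 and 6.53 in wild type. Fgf11 was next at 0.08, from a dim probe set. Retreg1 and the chromatin organiser Satb1 lay nearest to Mllt3, at 0.13 each against its SD of 0.54. Satb1 read 6.15, 5.94 and 6.35 in TFIIA nc/nc and 6.19, 7.02, 7.08 and 7.42 in wild type. Eya2 and the GTPase Rab38 lay nearest to Gfi1, at 0.13 and 0.15 against its SD of 0.59, and Rab38 read 7.45, 7.76 and 8.21 against 7.71, 8.56, 8.69 and 8.65. These genes were picked for their likeness over the same arrays. For Gfi1b they were Agpat1 and H2-D4 at 0.14 each, and for Mecom the dim probe sets of P2ry12 and Csn1s2a at 0.06 each.

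Gtf2a1, which encodes the altered TFIIA subunit, read 5.17, 6.16 and 5.92 in TFIIA nc/nc and 3.61, 5.27, 3.86 and 5.69 in wild type with its brightest probe set (difference 1.14, SE 0.50; limma adjusted p = 0.984). Of its dimmer probe sets one differed by 0.58 (SE 0.21) and the dimmest by −0.22 (SE 0.17). The mutation acts on the protein, so this reading does not check the genotype labels.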

How the data were processed

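Per the submitters' processing notes, the authors made the deposited intensity values with RMA in Affymetrix Expression Console, which corrects background, normalizes between arrays and summarises each probe set. The sources used here name no version. The deposited intensities were linear, so log2 was taken with no pseudocount. Of 22690 probe sets 64 controls were left out. Genes were named by the platform annotation and updated by Entrez identifier through RefSeq (GRCm38.p6), where 12369 of 12393 matched. The annotation gave 1 gene for 20380 probe sets, more than 1 for 691 and no gene for 1555.

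Genotypes were compared on all 7 arrays with lmFit and eBayes of limma 3.58.1 (R 4.3.3), without covariates, 2-sided, with Benjamini-Hochberg adjustment over 22626 probe sets and a threshold of 0.05. The fit was tested on simulated data. Single values also had an exact 2-sided permutation test over 35 assignments of the arrays. Members and gene lists were chosen with earlier results of these data known. Named were all member probe sets, Gtf2a1, the 3 genes of smallest p in each related list and the 2 nearest profiles; other genes were named after their values were seen. Lists used the probe set of highest mean per gene. Scan dates were not used, so array batches were not tested, and the number of arrays limits the precision. Alternatives covered probe set choice, dim filters, normalization, moderation, weights, covariates, the replicate number and each array left out. Plots used matplotlib 3.10.9 in Python 3.11.15.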

Additional observations from a re-analysis of the deposited data

Results flagged for a closer look

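In wild type, Hlf probe set 1434735_at had 1 array far from the others. Wild-type replicate 1 read 6.90 and the others 7.51 to 7.57, and the gap to the nearest was 0.911 of the group's whole range, above Dixon's 95% critical value for 4 samples. Of 13 probe sets examined this was the only such case, and chance alone marks about 1 group in 20.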

How the results depend on the processing

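The number of member probe sets past the threshold was 0 in every alternative run, among them each array left out and a threshold of 0.1. The unadjusted limma p was under 0.05 in 2 (for example with no moderation) to 6 of them (pooled samples only, or without wild-type replicate 1). The fits within 1 endothelial cluster are left out of that range, because each has a single array of 1 genotype. Over all probe sets 2.09% lay lower at that level with no moderation, 5.8% with pooled samples only and 3.77% without wild-type replicate 1. The median difference stayed below 0, between −0.60 with pooled samples only and −0.21 without the 3 arrays of high endothelial level. Leaving out each array in turn gave −0.50 to −0.23. Gtf2a1 differed by 0.74 to 2.06, without passing. Both Hlf probe sets, Mllt3, Gfi1, Gfi1b, Etv6, 1421317_x_at of Myb and 1423011_at of Mecom kept their sign in all settings in which they were tested. The sign turned for Meis1 with cyclic loess (−0.0065), array weights (−0.0304), and without TFIIA nc/nc replicate 3 (−0.0159), wild-type replicate 1 (−0.0745) or wild-type replicate 3 (−0.035), and leaving out each array gave up to 0.111. It turned for Mecom 1422295_at with the sex measure (0.0103), pooled samples only (0.0693), without the 3 arrays of high endothelial level (0.0381) and without wild-type replicate 1 (0.0908, down to −0.2651 without wild-type replicate 4). It turned for Myb 1450194_a_at (0.0678) and 1422734_a_at (0.40) with those 3 arrays alone. The cause was not tested. Both wild-type single embryos were left out of the pooled-only setting, where the smallest adjusted p was 0.185 for Hlf 1434735_at. With the replicate number as a block the median was −0.23, and 3 of the 12 had an unadjusted p under 0.05, beside 2.99% of all probe sets. The deviations of same-numbered samples correlated at 0.364, −0.145 and 0.048, and 2 of 6 samples correlated best with their own number. With groups of 3 and 4 arrays this check cannot exclude a litter shared between samples, and no pairing was assumed. Dim probe sets can understate differences, which was not tested for those of Mecom.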

Other observations

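Meis2 and Ets1 followed the endothelial level of the arrays, and these, Procr and Cd48 were picked after their values were seen. Meis2, a relative of Meis1, read 4.46, 4.77 and 5.04 in the 3 arrays of high endothelial level and 2.55 to 3.15 in the remaining 4. Ets1, an ETS factor of lymphocytes and endothelium, read 7.21, 7.88 and 7.60 in those 3 arrays and 4.71 to 5.48 in the others. Procr, a surface marker of stem cells that endothelium also carries, read 5.99, 6.26 and 6.58 in TFIIA nc/nc and 6.39, 7.04, 7.72 and 7.06 in wild type, with wild-type replicate 1 again the lowest of its group. Cd48, which is carried by more mature progenitors, read 9.06, 9.50 and 9.22 in TFIIA nc/nc and 8.73, 8.96, 9.14 and 9.03 in wild type.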
